A study of Mus musculus with 22 samples.

Results

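Neurons release transmitter from vesicles by a set of proteins whose genes fall into a few families. The 61 genes of that machinery were followed in a sequencing table of 12596 genes from the mouse locus coeruleus and the hindbrain around it, the locus coeruleus being the brain stem nucleus that supplies most of the brain's noradrenaline. They were chosen by symbol alone, as every gene named as a synaptotagmin, syntaxin, syntaxin-binding protein, VAMP, complexin, RIM, Munc13, SV2 or synapsin, together with Snap23, Snap25, Snap29 and Snap91. The symbol rule uses no measured value, but the members were chosen with earlier results of these data known. Of 68 protein-coding mouse genes with such symbols on the chromosomes of the GENCODE annotation used here, 60 were in the table, and the remaining member, Vamp7, lies on an unplaced contig. Genes of these families outside the table were not analysed here.

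All 11 mice had a C57Bl/6 background and came from crossing a Th-cre line with a Slc6a2-eGFP/Rpl10a line. In the second line the noradrenaline transporter gene Slc6a2 drives a green fluorescent tag on the ribosomal protein Rpl10a, so that ribosomes of noradrenergic cells can be pulled down with the RNA on them. Both transgenes were thus carried by controls and treated animals alike. Infused were either hTyr, the human pigment enzyme tyrosinase (5 animals), or the fluorescent protein EYFP as control (6 animals). Every animal gave 1 immunoprecipitated library (IP), labelled noradrenergic, and 1 library of the hindbrain RNA before the pull-down (input), labelled total hindbrain. Animals are named by the label of their IP library (IP_501 to IP_512). This makes 4 groups: hTyr IP (n = 5), EYFP IP (n = 6), hTyr input (n = 5) and EYFP input (n = 6). The animals' age, the time after infusion and the promoter of the infused constructs are not given in the sources used here.

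As background, a synaptic vesicle fuses when the vesicle protein synaptobrevin (a VAMP) zips up with syntaxin and SNAP-25 of the plasma membrane into a SNARE complex. Munc13 and Sec1/Munc18 proteins guide this assembly, RIM proteins hold vesicles and calcium channels together at the active zone, complexins clamp and promote the assembled complex, and synaptotagmins sense the calcium that triggers fusion. Tomosyns (Stxbp5 and Stxbp5l) compete with synaptobrevin for the other SNAREs and hold release back. Noradrenergic neurons also store transmitter and peptides in dense core vesicles, whose release uses many of the same proteins.

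To show the regulatory sequence in front of members that moved in opposite directions between input and IP, the 250 bases before the gene start are printed for 2 members with large rises and 2 with large falls in both treatments. The windows are from RefSeq (GRCm38.p6), read 5′ to 3′ on the minus strand, on which all 4 genes lie. Capitals mark matches, on either strand, to the GC box GGGCGG, the cAMP response element TGACGTCA, the E-box CACGTG or the TATA box TATAAA, none of which overlapped another here. Stxbp5l, at chr16:37384959-37385208, and Stxbp3, at chr3:108840503-108840752, were higher in IP. Stx2, at chr5:129008573-129008822, and Cplx1, at chr5:108550028-108550277, were lower in IP.
Stxbp5l: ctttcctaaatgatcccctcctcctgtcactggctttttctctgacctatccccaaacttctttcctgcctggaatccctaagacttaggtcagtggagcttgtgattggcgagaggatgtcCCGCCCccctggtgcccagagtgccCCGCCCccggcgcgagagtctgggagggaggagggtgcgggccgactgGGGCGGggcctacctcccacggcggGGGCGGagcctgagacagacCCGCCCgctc
Stxbp3: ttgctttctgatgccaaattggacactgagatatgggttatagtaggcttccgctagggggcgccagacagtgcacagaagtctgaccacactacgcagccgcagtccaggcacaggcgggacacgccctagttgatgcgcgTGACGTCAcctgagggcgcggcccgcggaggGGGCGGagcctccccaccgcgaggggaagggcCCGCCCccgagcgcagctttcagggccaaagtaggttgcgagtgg
Stx2: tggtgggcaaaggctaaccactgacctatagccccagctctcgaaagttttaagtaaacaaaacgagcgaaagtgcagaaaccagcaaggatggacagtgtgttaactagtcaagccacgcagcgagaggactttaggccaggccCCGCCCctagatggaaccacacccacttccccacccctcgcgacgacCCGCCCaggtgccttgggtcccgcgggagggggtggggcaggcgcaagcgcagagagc
Cplx1: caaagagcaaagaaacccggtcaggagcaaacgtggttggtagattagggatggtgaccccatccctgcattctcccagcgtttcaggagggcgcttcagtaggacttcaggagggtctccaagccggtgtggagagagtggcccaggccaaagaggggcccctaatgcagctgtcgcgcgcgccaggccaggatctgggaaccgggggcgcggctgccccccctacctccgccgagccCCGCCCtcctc
The GC box occurred 5 times before Stxbp5l, 2 times before Stxbp3, 2 times before Stx2 and once before Cplx1. Windows were found for 46 of the 61 members, and 32 of these held a GC box, against 32.9% of the 27025 windows of all genes. The windows of all genes, here and below, include genes outside the table of 12596 genes, to which all members belong. A comparison with the windows of table genes alone was not made. The GC box was present in 12 of 13 windows of members higher in IP in both treatments and in 8 of 12 windows of members lower in both. The cAMP response element stood before 2 members, Stxbp3 and Syn1 (1.62% of all windows), the E-box before 6 (6.05%) and the TATA box before 2 (13.0%). Members' windows had a median GC content of 61.2%, against 52% for all genes. These matches describe letters in a window and say nothing of the factors that bind them.

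The authors deposited log2 CPM, that is, read counts scaled to library size, on a log2 scale, where a difference of 1 is a 2-fold change. Libraries held between 12654489 and 25100142 reads in the table, and single members between 37 reads (Vamp5) and 69899 reads (Cplx1). Of the markers of noradrenergic cells, the label of IP, 11 of 11 were higher in IP, by a median of 1.92 in EYFP and 2.51 in hTyr animals, and their summed level was 742 to 1468 CPM in EYFP IP, 874 to 2329 in hTyr IP and 257 to 302 in all input libraries. The IP libraries still held RNA of other cells. Oligodendrocyte markers summed to between 5803 and 8137 CPM in IP and between 6359 and 8880 CPM in input, astrocyte markers were higher in IP for 4 of 7 genes in EYFP and 5 of 7 in hTyr animals, and no marker was at 0 in all libraries. Markers of other neurons were higher in IP as well: of 4 GABAergic or glycinergic genes 3 rose in EYFP and 2 in hTyr animals (Gad1 by 0.84 and 0.88), of 3 serotonergic genes 2 rose in each (Tph2 by 1.23 and 1.28) and 1 fell in EYFP animals (Fev), of 3 cholinergic genes 2 rose in each (Slc5a7 by 1.27 and 1.49), and of 2 glutamatergic genes 1 rose in each. Their summed level was 630 to 933 CPM in EYFP IP against 547 to 669 in EYFP input for the GABAergic or glycinergic genes, 67.1 to 107 against 41.8 to 52.8 for the serotonergic and 41.3 to 68.1 against 31.8 to 43.4 for the cholinergic genes. The part of these cells in the changes of release genes was not tested. Cerebellar markers (Gabra6, Pcp2, Cbln3, Car8) separated the animals: their sum was 52.0 to 237 CPM in IP of EYFP animals IP_504, IP_505, IP_506 and IP_511, and 22.9 to 42.5 CPM in hTyr IP. In these bulk libraries, fewer cells of a type and less RNA per cell cannot be told apart.

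The first question was which release genes the pull-down from noradrenergic cells enriched. A gene is called here when its adjusted p, from limma over all 12596 genes with Benjamini-Hochberg adjustment, is under 0.05. In EYFP animals 41 of 61 members were called, 17 higher and 24 lower in IP, and in the table as a whole 56.5% of genes were called, 28.5% higher and 28.1% lower. In hTyr animals 39 members were called, 19 higher and 20 lower, against 54.4% of all genes, 27.4% higher and 27% lower. The median change was -0.13 over members and -0.03 over all genes in EYFP animals, and -0.03 against -0.04 in hTyr animals. No test was made of the members against these shares, which depend on level. Among the 75% of genes with the highest means, 5747 of 9447 genes were called in EYFP and 5563 in hTyr animals. Of the 54 members in that fit, 38 were called in each treatment. The set split into genes that were higher and genes that were lower.

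The split was much the same in both treatments, which were different animals. Both fits called 34 members, all 34 in the same direction (16 higher, 18 lower), which is 82.9% of the EYFP calls and 87.2% of the hTyr calls, and 15 members were called in neither. Of all genes, 46.3% were called in both in the same direction. Pearson's r of the changes over the 61 members was 0.962, as a description over genes. Within animals, 16 members were higher in IP in all 11 animals and 17 were lower in all 11, as were 22.8% and 21.4% of all genes. Without the 4 EYFP animals of high cerebellar marker level, which leaves 2 EYFP animals and was tried after seeing the marker sums, 32 members were called, against 38.5% of all genes in that fit, all 32 among the 41 and in the same direction.

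**Figure D1:**
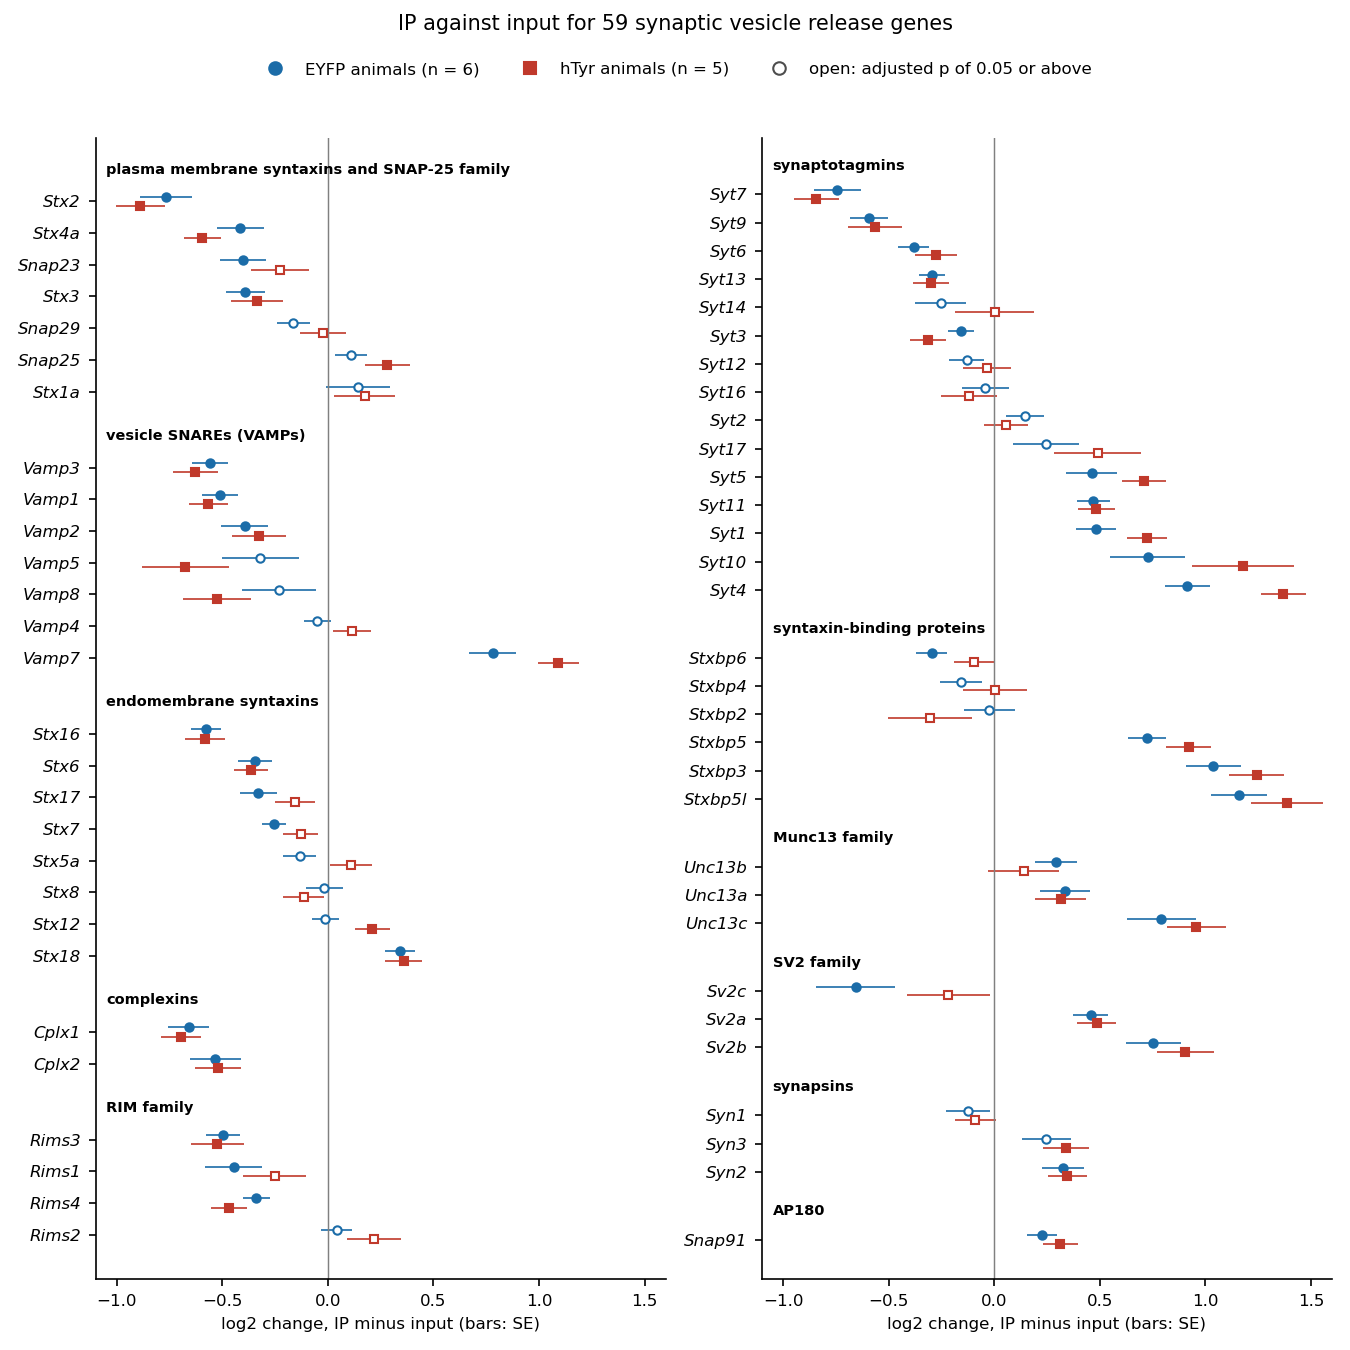
Change from input to IP (log2, x axis) for 59 of the 61 members, ordered by family, with blue circles for EYFP animals (n = 6), red squares for hTyr animals (n = 5), bars for the SE and open symbols where the adjusted p was 0.05 or above. Stxbp5l lies farthest to the right and Stx2 farthest to the left in both treatments, and the families split, with the 3 Munc13 genes right of 0 and both complexins left of it.

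The plasma membrane SNAREs were mostly lower in IP. Of 8 members, 5 fell and 0 rose in EYFP animals, and 4 fell and 1 rose in hTyr animals. Of all genes, 28.5% rose and 28.1% fell in EYFP animals, and 27.4% and 27% in hTyr animals. These shares stand beside every family count here and below, and no family was tested against them. Stx2, a syntaxin of the plasma membrane outside the classical synaptic pair, had log2 CPM of 4.23 to 4.48 in EYFP input (median 4.42) and 3.32 to 4.19 in EYFP IP (median 3.58). In hTyr animals it stood at 4.30, 4.21, 4.48, 4.52 and 4.35 in input and at 3.38, 3.46, 3.65, 3.62 and 3.30 in IP. Every IP library was below every input library, and the fall was -0.77 ± 0.12 (SE, adjusted p = 7.7e-05) in EYFP and -0.89 ± 0.12 (adjusted p = 8.2e-06) in hTyr animals.

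Stx1a, a syntaxin of the synaptic SNARE complex, was higher in IP in all 11 animals, but its changes of 0.14 and 0.17 were not called, except in a fit with animals as a block after removing each library's trends with exon length and GC (0.28 and 0.39). Snap25, the SNAP-25 gene itself, spanned 11.19 to 11.52 in EYFP input (median 11.34) and 11.41 to 11.50 in EYFP IP (median 11.46), so the IP values lay inside the input range. In hTyr animals it read 11.12, 11.34, 11.30, 11.35 and 11.60 in input and 11.70, 11.46, 11.55, 11.61 and 11.81 in IP, with a called rise of 0.28 ± 0.11 (SE, adjusted p = 0.034). The direction depended on the setting: with the block and the length and GC trends removed, Snap25 was lower in IP in both treatments (-0.27 and -0.26), quantile normalization gave called rises of 0.29 and 0.54, and the hTyr call was lost without animal IP_501, IP_502, IP_508 or IP_509 (changes of 0.21 to 0.32). Snap23, the SNAP-25 relative of non-neuronal secretion, fell by 0.40 in EYFP animals, a call lost without the 4 of high cerebellar marker level, and changed by -0.23, not called, in hTyr animals.

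Among vesicle SNAREs, the synaptobrevins fell and the toxin-insensitive Vamp7 rose. Vamp1 spanned 10.72 to 10.96 in EYFP input (median 10.82) and 10.08 to 10.51 in EYFP IP (median 10.30), and in hTyr animals it read 10.95, 10.91, 10.87, 10.82 and 11.02 in input and 10.20, 10.30, 10.38, 10.28 and 10.58 in IP. No IP value reached an input value. The fall was -0.51 ± 0.08 (SE, adjusted p = 0.00010) in EYFP and -0.57 ± 0.09 (adjusted p = 7.1e-05) in hTyr animals. Vamp2, the main synaptobrevin of the forebrain, fell by 0.39 in EYFP and by 0.33 in hTyr animals, but the hTyr call was lost without a variance trend (adjusted p = 0.067), with the block and trends removed (-0.17, adjusted p = 0.067) and without animal IP_502, IP_508, IP_509 or IP_510 (adjusted p = 0.084 to 0.11). Vamp3 (cellubrevin), the broadly expressed relative, fell by 0.56 and 0.63. Vamp7 rose by 0.78 ± 0.11 (SE, adjusted p = 3.0e-05) in EYFP and by 1.09 ± 0.10 (adjusted p = 1.4e-07) in hTyr animals, from a range of 4.48 to 5.17 in input to 5.34 to 6.00 in IP over all animals. Vamp5 and Vamp8, known from muscle and from epithelial and blood cells, were called lower in hTyr animals (-0.67 and -0.52), and not in EYFP animals (-0.32 and -0.23); Vamp5 is scarce, and its hTyr change became -0.32 with a pseudocount of 5 CPM.

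Of 8 syntaxins of internal membranes, 1 rose and 4 fell in EYFP animals and 2 rose and 2 fell in hTyr animals. One of the hTyr rises, that of Stx12 (0.21), was no longer called without a variance trend, after quantile normalization, with the block and trends removed or without animal IP_501, IP_502, IP_508 or IP_509. Stx16 of the trans-Golgi network fell by 0.58 in both treatments. Stx18 of the endoplasmic reticulum rose by 0.34 and 0.36, but 32.3% of its exon bases are shared with genes on the opposite strand, and whether counting used the strand is not given in the sources used here.

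Synaptotagmins showed the widest spread of any family. Of 15 members, 5 rose, 5 fell and 5 were not called in each treatment. Of all genes, 28.5% were called higher and 28.1% lower in EYFP animals, and 27.4% and 27% in hTyr animals. Syt4, a synaptotagmin of dense core vesicles whose first calcium-binding domain binds no calcium, spanned 6.80 to 7.10 in EYFP input (median 6.92) and 7.47 to 8.17 in EYFP IP (median 7.84). In hTyr animals it read 6.48, 6.75, 6.94, 6.91 and 6.98 in input and 8.42, 8.19, 8.07, 8.25 and 7.97 in IP. The ranges did not overlap, with rises of 0.92 ± 0.11 (SE, adjusted p = 5.0e-06) in EYFP and 1.37 ± 0.11 (adjusted p = 3.6e-08) in hTyr animals, although 14.5% of its exon bases are shared with a gene on the opposite strand. Its relative Syt11 rose by 0.47 and 0.48.

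Syt1, the fast calcium sensor of the forebrain, was at 8.27 to 8.67 in EYFP input (median 8.49) and 8.69 to 9.27 in EYFP IP (median 8.95). In hTyr animals it read 8.04, 8.25, 8.29, 8.51 and 8.39 in input and 9.18, 8.95, 8.87, 9.16 and 8.95 in IP. All IP libraries were above all input libraries, by 0.48 ± 0.10 (SE, adjusted p = 0.00048) in EYFP and 0.72 ± 0.10 (adjusted p = 1.0e-05) in hTyr animals. The hindbrain's other fast sensor, Syt2, changed by 0.15 and 0.05 and was not called, except with the block and trends removed (0.25 and 0.19). Syt5 rose by 0.46 and 0.71, and Syt10, known for calcium-dependent secretion of a growth factor, rose by 0.73 and 1.18. For Syt10, whose level is low (1.42 to 3.35 over all libraries), a pseudocount of 5 CPM gave 0.38 and 0.60, and the EYFP call was lost without the 4 EYFP animals of high cerebellar marker level (0.56, adjusted p = 0.12).

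Syt7, the slow, high-affinity sensor of asynchronous release, went the other way. It spanned 7.93 to 8.36 in EYFP input (median 8.12) and 7.13 to 7.83 in EYFP IP (median 7.32), and in hTyr animals read 8.30, 8.26, 8.11, 8.05 and 7.89 in input and 7.38, 7.57, 7.24, 6.98 and 7.22 in IP. Again the IP and input ranges did not overlap. The fall was -0.74 ± 0.11 (SE, adjusted p = 4.1e-05) in EYFP and -0.84 ± 0.11 (adjusted p = 6.2e-06) in hTyr animals. Syt9, the other fast sensor of the family, fell by 0.59 and 0.56.

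Both complexins fell. Cplx1, the complexin of the hindbrain and the member with the highest level per kilobase, spanned 11.02 to 11.16 in EYFP input (median 11.06) and 10.20 to 10.72 in EYFP IP (median 10.33), and in hTyr animals read 11.41, 11.30, 11.13, 11.08 and 11.18 in input and 10.58, 10.54, 10.52, 10.38 and 10.61 in IP. Here too every IP library lay below every input library, by -0.66 ± 0.10 (SE, adjusted p = 4.3e-05) in EYFP and -0.70 ± 0.09 (adjusted p = 1.0e-05) in hTyr animals. Cplx2 fell by 0.53 and 0.52, the latter becoming -0.33 with the block and trends removed.

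**Figure D2:**
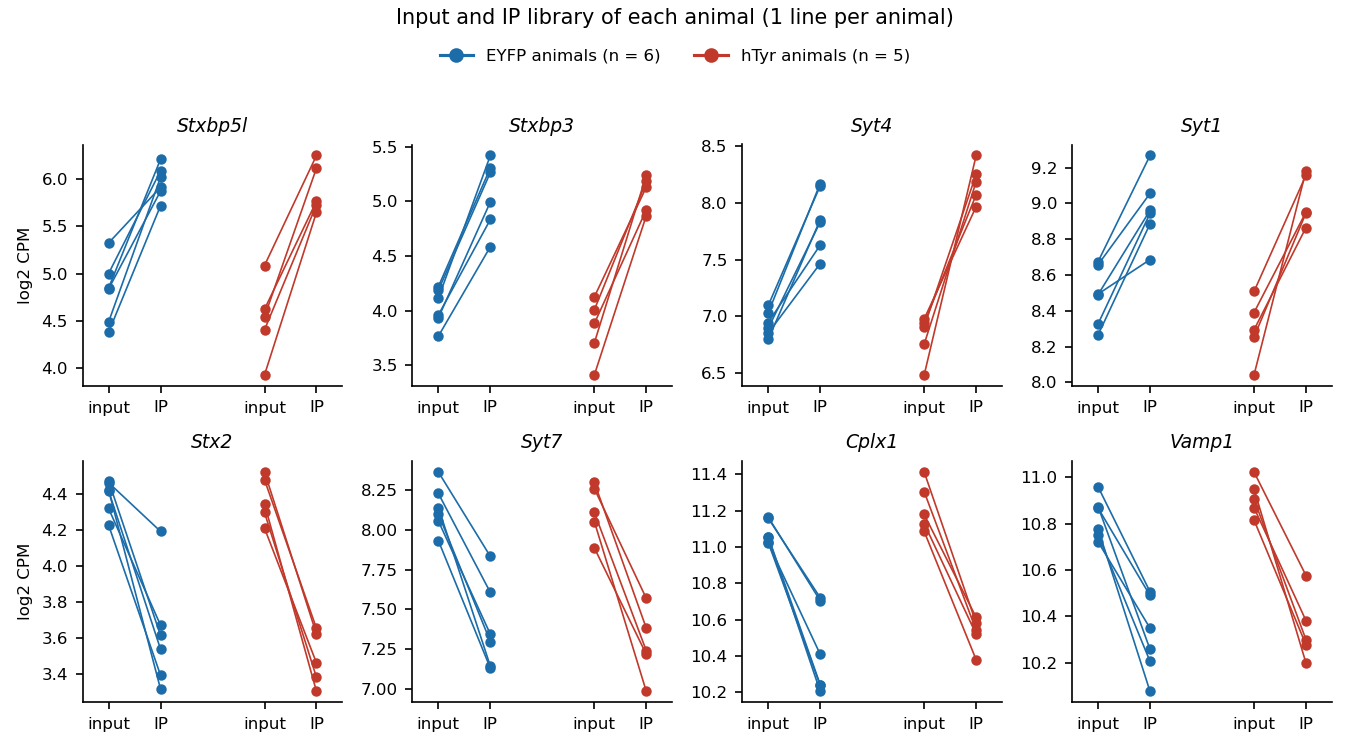
Level (log2 CPM, y axis) of 4 members higher and 4 lower in IP, with 1 line for each animal from its input to its IP library, blue for EYFP (n = 6) and red for hTyr (n = 5). All 11 lines rise for Stxbp5l, Stxbp3, Syt4 and Syt1 and all 11 fall for Stx2, Syt7, Cplx1 and Vamp1.

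The syntaxin-binding group, with 3 of 7 members rising in each treatment, held the largest rise of the set. Stxbp5l (tomosyn-2), an inhibitor of SNARE assembly, spanned 4.38 to 5.32 in EYFP input (median 4.84) and 5.72 to 6.21 in EYFP IP (median 5.97), and in hTyr animals read 3.93, 4.40, 4.62, 5.09 and 4.54 in input and 5.65, 5.73, 5.77, 6.25 and 6.12 in IP. No IP library overlapped the input range, and the rise was 1.16 ± 0.13 (SE, adjusted p = 4.4e-06) in EYFP and 1.39 ± 0.17 (adjusted p = 4.4e-06) in hTyr animals. Stxbp3 (Munc18c), the partner of syntaxin 4 in regulated secretion, spanned 3.77 to 4.22 in EYFP input (median 4.04) and 4.58 to 5.42 in EYFP IP (median 5.13). Its hTyr values were 3.41, 3.88, 3.70, 4.12 and 4.01 in input and 4.87, 4.92, 5.24, 5.13 and 5.18 in IP, and the rises were 1.04 ± 0.13 (SE, adjusted p = 9.0e-06) and 1.24 ± 0.13 (adjusted p = 9.2e-07). Its partner Stx4a, the table's name for syntaxin 4, fell by 0.41 and 0.59.

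Stxbp5 (tomosyn-1) rose by 0.72 and 0.92, values that became 0.39 and 0.47, still called, with the block and trends removed.

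Munc13 genes, which prime vesicles, were higher in IP and RIM genes mostly lower. All 3 Munc13 genes rose in EYFP animals and 2 of 3 in hTyr animals. Unc13b rose by 0.29 in EYFP animals, a call lost without animal IP_506, without the 4 of high cerebellar marker level and with the block and trends removed, and changed by 0.14, not called, in hTyr animals. Unc13c (Munc13-3), best known from cerebellar granule cells, rose by 0.79 ± 0.16 (SE, adjusted p = 0.00070) and 0.96 ± 0.14 (adjusted p = 2.5e-05). The 4 cerebellar markers, whose sum ran from 30.1 to 237 CPM in EYFP IP, were not called in EYFP animals. They changed there by 0.79 (Gabra6), 0.20 (Car8), -0.38 (Pcp2) and -0.46 (Cbln3), and their part in the Unc13c rise was not tested. Unc13c spanned 4.38 to 5.43 in EYFP input (median 5.21) and 5.32 to 6.21 in EYFP IP (median 6.02), where 1 IP library, of animal IP_505, lay within the input range. Unc13a (Munc13-1) rose by 0.34 and 0.32, calls that were lost in EYFP animals without animal IP_504 or IP_506 or the 4 of high cerebellar marker level (0.27 to 0.30), and in hTyr animals without a variance trend, after quantile normalization (0.26) or without animal IP_502 or IP_510 (0.24 and 0.23). With the block and trends removed, Unc13a rose by more, 0.53 and 0.60.

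Of the 4 RIM genes, 3 fell in EYFP and 2 in hTyr animals. Rims3, which encodes a short RIM lacking most domains of the long ones, fell by 0.50 and 0.52, the EYFP value becoming -0.28 with the block and trends removed. Rims1, a long scaffold RIM, fell by 0.45 in EYFP animals, a call lost without the 4 of high cerebellar marker level (-0.48, adjusted p = 0.091). Its hTyr change of -0.25 was not called but was called without animal IP_501 (-0.41) or with the block and trends removed (-0.32). Rims2, the other long RIM, changed by 0.04 and 0.22 and was not called.

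The SV2 family, vesicle glycoproteins related to transporters, split as well. Sv2b spanned 6.27 to 6.91 in EYFP input (median 6.59) and 7.13 to 7.91 in EYFP IP (median 7.29), and rose by 0.75 ± 0.13 (SE, adjusted p = 0.00017) in EYFP and 0.91 ± 0.13 (adjusted p = 2.9e-05) in hTyr animals. Sv2a, the binding site of the drug levetiracetam, rose by 0.46 and 0.48. Sv2c, known from basal ganglia and other deep nuclei, fell by 0.66 ± 0.19 (SE, adjusted p = 0.0069) in EYFP animals, with a range of 3.84 to 4.60 in input (median 4.11) and of 2.85 to 4.12 in IP (median 3.50). In hTyr animals it changed by -0.22, not called, from 4.13, 4.46, 4.07, 4.23 and 4.54 in input to 4.52, 4.56, 3.60, 3.42 and 4.23 in IP, where 3 animals were lower in IP and 2 higher. The value was -0.37 without animal IP_501 and -0.07 without animal IP_509. The difference between these changes (0.44 ± 0.30, SE) had an unadjusted p of 0.15 in limma. Of the synapsins, which tether vesicles to actin, Syn2 rose by 0.33 and 0.35, and Syn1 changed by -0.12 and -0.09 and was not called. Snap91 (AP180), a clathrin adaptor that recycles vesicles, rose by 0.23 and 0.31, but both calls were lost with the block and trends removed, and the EYFP call also without animal IP_506 or the 4 of high cerebellar marker level.

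Levels can be compared between genes only per length, and 60 members had an exon length. On that scale, CPM per kilobase of exon, the order at the top was Cplx1, Snap25 and Vamp2 in all 4 groups. Their levels in EYFP IP were 633 ± 107, 413 ± 8.41 and 269 ± 47.0 CPM per kilobase (SD, n = 6), against 989 ± 44.9, 384 ± 34.7 and 352 ± 47.2 in EYFP input, where Snap25 and Vamp2 overlapped within 1 SD. Farther down in EYFP IP, Syt11 stood at 159 ± 18.4, and Vamp1 (126 ± 14.5) and Cplx2 (112 ± 23.5) did not differ beyond their spread. Summed over the 60 members, the level was 2829 to 3327 CPM per kilobase in EYFP IP and 3447 to 3817 in EYFP input, with no overlap, and 3094 to 3444 in hTyr IP against 3533 to 3918 in hTyr input. Such a sum is weighted to the most abundant members. Cplx1 alone stood at 989 in EYFP input and 633 in EYFP IP, while 17 members were called higher in IP in EYFP animals. At the low end stood Unc13b, at 0.612 ± 0.0655 in EYFP IP.

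**Figure D3:**
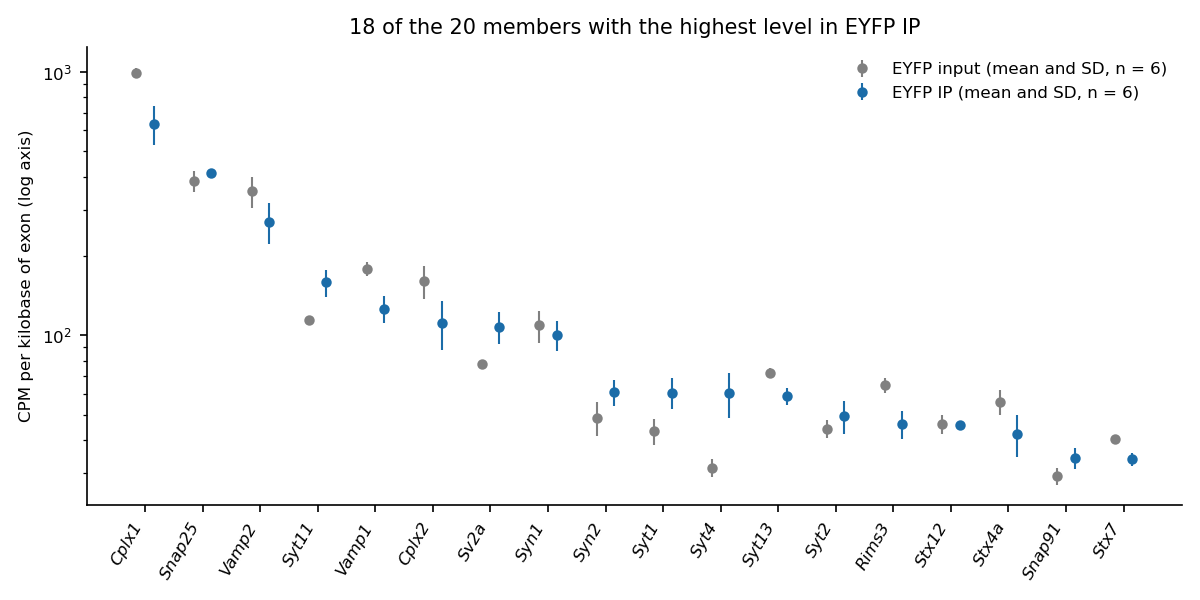
Level per length (CPM per kilobase of exon, log axis) of 18 of the 20 members with the highest mean in EYFP IP, with grey points for EYFP input and blue points for EYFP IP (mean and SD, n = 6 each). Cplx1 leads both groups, at 989 in input and 633 in IP, and Syt4 lies at 60.2 in IP and 31.5 in input.

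Within families this changed which gene made up the bulk. Syt4 held 11.9% ± 1.77 of the summed level per kilobase of 15 synaptotagmins in EYFP IP and 7.24% ± 0.528 in EYFP input (SD, n = 6), and 14.3% ± 1.41 and 6.79% ± 0.890 in the hTyr groups (SD, n = 5). Syt7 held 4.57% ± 1.16 in EYFP IP and 8.66% ± 0.608 in EYFP input, and Syt11 held most in both, 31.4% ± 2.39 and 26.2% ± 0.919. Among VAMPs with a length, Vamp2 held 61.0% ± 4.04 in EYFP IP and 60.1% ± 4.24 in EYFP input, a difference inside the spread. Sv2c held 0.916% ± 0.201 of the SV2 level in EYFP IP and 2.01% ± 0.404 in EYFP input.

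Paralogs that can stand in for one another were compared by their log2 ratio within an animal, IP minus input, which cancels what both genes share. An exact two-sided sign-flip permutation test over the 11 animals was used for 10 pairs, and p-values were adjusted over the 10; the smallest p it can give is 0.000977. Of the 10 pairs, 9 passed at an adjusted p under 0.05, and 8 of these are described. Syt1 gained on Syt2 by 0.49 ± 0.28, and Syt4 on Syt11 by 0.65 ± 0.34 (SD, n = 11 animals), both in 11 of 11 animals (exact p = 0.000977, adjusted 0.0016). Sv2a gained on Sv2c by 0.93 ± 0.56 in 10 of 11 animals (exact p = 0.0020, adjusted 0.0028), the exception being an hTyr animal at -0.19.

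The sign of a shift depends on which paralog is written first, so signs are not comparable between pairs. The log2 ratio fell for Snap23 over Snap25 by 0.51 ± 0.23, for Syn1 over Syn2 by 0.44 ± 0.16 and for Rims1 over Rims2 by 0.48 ± 0.18 (SD), each in 11 of 11 animals with the smallest p. Small shifts were found for Vamp1 over Vamp2 (-0.17 ± 0.20, 1 of 11 positive, exact p = 0.0029, adjusted 0.0037) and Cplx1 over Cplx2 (-0.15 ± 0.14, 2 of 11 positive, exact p = 0.0059, adjusted 0.0065). In EYFP animals 56.5% of all genes were called between input and IP, and whether such shifts are particular to these families was not tested. In the 6 EYFP animals alone, where the smallest exact p is 0.03125, Vamp1 over Vamp2 no longer passed (-0.12, exact p = 0.0625, adjusted 0.069). With the length and GC trends removed, chosen after the gene results with it had been seen, the same 9 pairs passed. The shift was -0.41 for Vamp1 over Vamp2, 0.22 for Syt1 over Syt2 and 0.29 for Syt4 over Syt11.

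**Figure D4:**
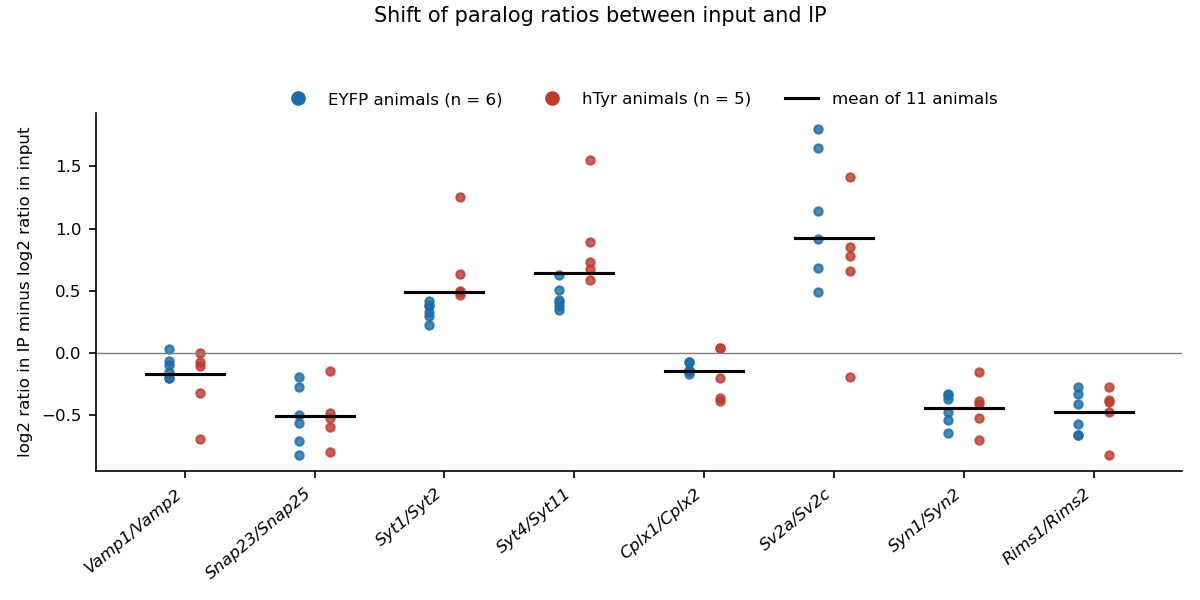
Difference between IP and input in the log2 ratio of 8 paralog pairs (y axis), with 1 point per animal, blue for EYFP (n = 6) and red for hTyr (n = 5), and a bar for the mean of 11 animals. The points lie above 0 in all animals for Syt1/Syt2 and Syt4/Syt11 and below 0 in all for Snap23/Snap25, Syn1/Syn2 and Rims1/Rims2, while Vamp1/Vamp2, Cplx1/Cplx2 and Sv2a/Sv2c have points on both sides.

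Around these families, 6 lists of other genes of the vesicle cycle, 125 of 137 in the table, served as company. They too were chosen with earlier results of these data known. In EYFP animals 57 of them rose and 29 fell, against 28.5% and 28.1% of all genes, and in hTyr animals 57 rose and 30 fell, against 27.4% and 27%. Of 14 dense core vesicle genes, 8 rose and 0 fell in EYFP and 9 rose and 1 fell in hTyr animals, led by the prohormone convertase Pcsk1 (1.24 and 1.53) and the granin Scg2 (0.89 and 0.97), with the convertase inhibitor Pcsk1n as the gene that fell (-0.50). Of 26 synaptic vesicle membrane genes, 10 rose and 4 fell in EYFP animals. The vesicular monoamine transporter Slc18a2 led them (1.92 and 2.51), followed by the glutamate transporter Slc17a6 (1.08 and 1.33).

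Among 23 active zone genes 10 rose and 7 fell in EYFP animals. The dense core vesicle priming factor Cadps rose by 0.83 and 0.97, while Bsn (bassoon), a giant scaffold protein, fell by 0.68 and 0.98. Of 32 endocytosis genes 17 rose and 7 fell in EYFP animals, and 15 rose and 7 fell in hTyr animals. Clathrin heavy chain Cltc was up by 1.07 and 1.35. SNARE disassembly and its regulators had 6 of 12 rising and 3 falling in EYFP animals, and 7 and 3 in hTyr animals. The uncoating chaperone Hspa8 stood at 1.01 and 1.21. Other SNARE and Sec1/Munc18 genes were the list that leaned down. Of 18, 6 rose and 8 fell in EYFP animals (median -0.12), and 6 rose and 7 fell in hTyr animals (median -0.15). Within that list, Scfd1 of the Golgi rose by 1.83 and 2.13.

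The second question was whether hTyr changed these genes in the pulled-down RNA. No member passed: 0 of 61 were called in IP by limma, where 0.0556% of all genes were. Voom on the recovered reads, the other tool run, also called 0. At an unadjusted p under 0.05 stood 7 members, 5 higher and 2 lower in hTyr, against 6.19% of all genes. Leaving out single animals moved that count between 3 (without animal IP_501, against 4.38% of all genes) and 10 (without animal IP_504, against 8.59%). Adjusted p-values of the 7 in limma lay between 0.68 and 0.80, and their values follow as descriptions.

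Stx12, a syntaxin of recycling endosomes, spanned 7.12 to 7.23 in EYFP IP (median 7.18) and stood at 7.58, 7.33, 7.27, 7.50 and 7.37 in hTyr IP, a difference of 0.23 ± 0.07 (SE). In input it differed by 0.01. Syt4 spanned 7.47 to 8.17 in EYFP IP, and its 5 hTyr values, 8.42, 8.19, 8.07, 8.25 and 7.97, lay in the upper part of that range or above it, a difference of 0.33 ± 0.12 that was 0.18 without the 4 EYFP animals of high cerebellar marker level. Sv2c differed by 0.58 ± 0.24, with wide groups: 2.85 to 4.12 (median 3.50) in EYFP IP and 4.52, 4.56, 3.60, 3.42 and 4.23 in hTyr IP.

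Stx5a of the Golgi differed by 0.27 ± 0.09 and Stx17, an autophagosome syntaxin, by 0.20 ± 0.09. Lower in hTyr IP were Unc13b (Munc13-2), at 3.13, 3.31, 3.43, 3.62 and 3.62 against 3.62 to 4.06 (median 3.77) in EYFP IP, and Stxbp2 (Munc18-2), at 2.52, 3.26, 3.69, 3.28 and 3.09 against 3.40 to 3.75 (median 3.54). The differences were -0.38 ± 0.13 and -0.37 ± 0.17 (SE). Stxbp2 fell below every EYFP library in 4 of 5 hTyr animals, but the difference was -0.21 without animal IP_501 and -0.24 with a pseudocount of 5 CPM. Animal IP_501 also had the highest noradrenergic marker sum (2329 CPM) and the highest Syt4, Stx12 and Stx5a among hTyr IP libraries. Cerebellar markers were lower in hTyr IP by a median log2 change of -1.49, 4 of 4 at an unadjusted p under 0.05, and their part in these differences was not tested. Without the 4 EYFP animals in which they were high, 0 members were called and 4 had an unadjusted p under 0.05, against 3.4% of all genes.

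**Figure D5:**
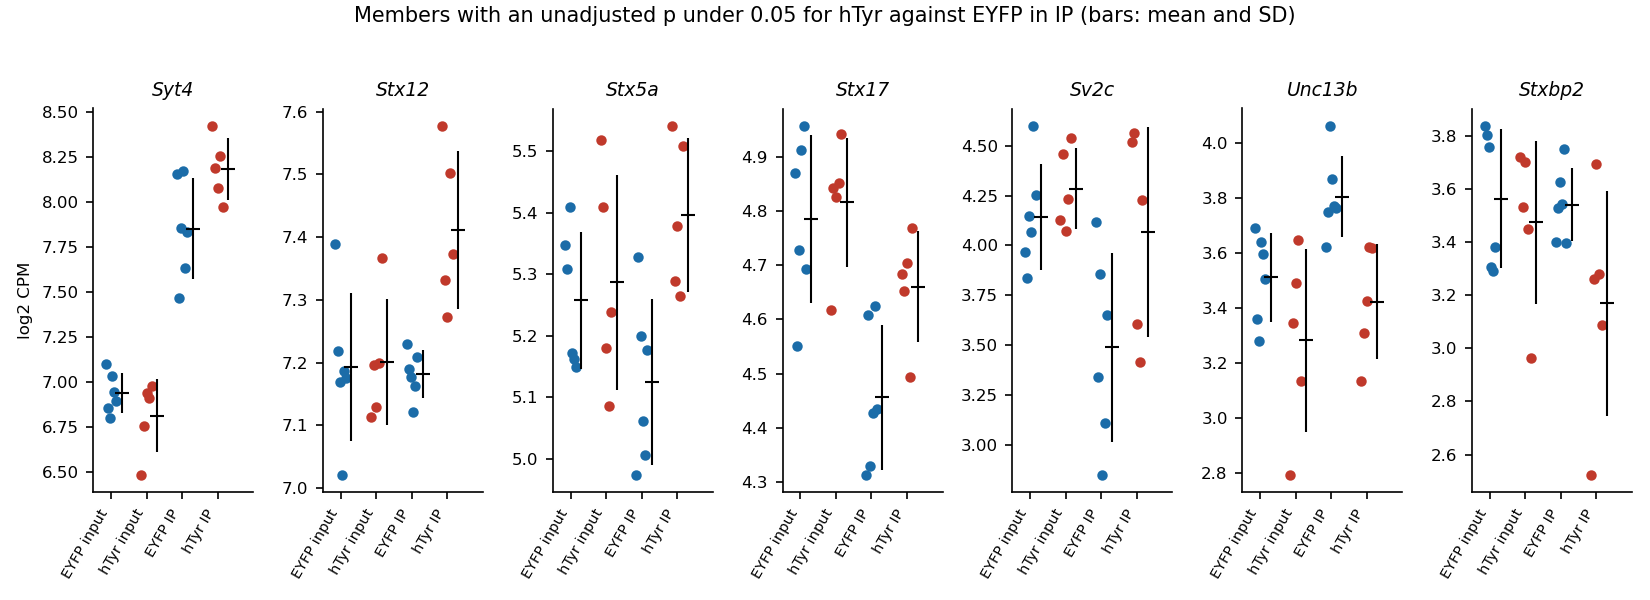
Level (log2 CPM, y axis) of the 7 members with an unadjusted p under 0.05 for hTyr against EYFP in IP, with 1 point per library in each of the 4 groups (n = 6 for EYFP, n = 5 for hTyr) and bars for mean and SD. The 7 were picked by that p in the same libraries, and none of them passed the adjusted threshold.

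Snap25 was higher in hTyr IP by 0.17 ± 0.09 (SE) and was not called. No paralog ratio passed in an exact two-sided permutation test over the 462 splits of the 11 IP libraries, whose smallest p is 0.00216. Of 10 pairs, 2 had an unadjusted p under 0.05: Syt4 over Syt11 was higher in hTyr IP by 0.31 on the log2 scale (exact p = 0.035, adjusted 0.21), and Sv2a over Sv2c differed by -0.59 (exact p = 0.041, adjusted 0.21). These are the ratios that contain Syt4 and Sv2c, whose own values are given above.

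In the input libraries, which hold the hindbrain RNA of the same animals, hTyr against EYFP gave 0 of 61 members called by limma, with 0.00794% of all genes called, and 0 members at an unadjusted p under 0.05, against 3.03% of all genes. Voom on recovered reads called 0 and put 1 at an unadjusted p under 0.05, against 351 of 12596 genes. Leaving out single animals moved the limma count between 0 and 10. Without animal IP_509 it was 10, of which 9 were lower in hTyr, against 8.53% of all genes. Without animal IP_505 it was 5, against 574 of 12596 genes, and without animal IP_512 it was 3, against 395. The cerebellar markers differed there too, by a median log2 change of -1.30.

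Whether the hTyr difference was another in IP than in input was tested as an interaction over all 22 libraries. It called 0 members (0.00794% of all genes), with 2 at an unadjusted p under 0.05 (3.31% of all genes): Syt4, whose hTyr difference was larger in IP than in input by 0.45 ± 0.16 (SE, adjusted p = 1.00), and Stx12, by 0.22 ± 0.10 (adjusted p = 1.00). Voom called 0 as well. With the animal as a replicate block, 0 members were called and 6 had an unadjusted p under 0.05, against 6.94% of all genes in that fit. Without the block, leaving out single animals moved the count of 2 between 1 (without animal IP_501, against 212 of 12596 genes) and 5 (without animal IP_505, against 3.45% of all genes). Without animal IP_501 the Syt4 value was 0.31, and without the 4 EYFP animals of high cerebellar marker level the Stx12 value was 0.14. The companion lists gave 0 called genes of 125 in each of the 3 comparisons with treatment.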

How the data were processed

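The authors deposited 1 table of log2 values for 22 libraries, named as filtered, normalized and log transformed. STAR, featureCounts and mm10 are named in the submitters' processing notes, and the filter, normalization and annotation are not given in the sources used here. The deposited log2 values were found to be CPM with a constant worth 2 reads on average, since 100% of them came back as whole reads (within 0.1 read). Total reads in the table, 12654489 to 25100142 per library, limit counting error only.

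All genes were fitted with limma 3.58.1 in R 4.3.3 (lmFit, eBayes with a mean-variance trend) on the deposited values, only with the libraries compared, and p-values were adjusted by Benjamini-Hochberg over all genes at a threshold of 0.05. Group membership and animal numbers came from the labels, and each animal is a replicate; the labels do not tell more of how animals were processed. Same-numbered IP and input libraries come from the same animal, and their deviations from group means correlated (mean r 0.448, lowest 0.279), so the fit with animals as a replicate block is the paired alternative. On simulated reads for EYFP IP against input, 100% of 2-fold changes over 12596 genes were called, and 6.54% of the calls were unchanged genes. The simulation gave all genes the same spread, had no pairing and held no change under 2-fold. In EYFP animals 2 members were called with a change of at least 1, so it does not bear on most calls. Exon lengths and GC content from GENCODE vM21 matched 12381 genes (98.3%), 60 members among them, and trends on them were removed by loess (span 0.4). Python 3.11.15 was used for ratios and figures.

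Members and lists were chosen with earlier results of these data known. Named were, in each IP against input comparison, the 10 largest rises and the 10 largest falls among called members and 17 core genes whatever their values; in the treatment comparisons up to 5 rises and 5 falls with an unadjusted p under 0.05; the paralog pairs; and up to 3 rises and 3 falls per companion list. Other members mentioned (Snap23, Snap91, Rims2, Stx18, Syt3, Syt6, Stx3, Stx7, Syn3) were chosen after their values were seen. The values of 2 members, and of the pairs that hold them, are not reported here, though the counts include them. Alternatives were no variance trend, quantile normalization, voom on recovered reads, a pseudocount of 5 CPM, only the 75% of genes with the highest means, a shared spread, the block, length and GC trends, total reads as a covariate, and leaving out each animal. The cerebellar animals and the trends in ratios were added after seeing the data.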

Additional observations from a re-analysis of the deposited data

Results flagged for a closer look

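Of 152 sets of values, the named members in each group, 8 held a library far from the others of its group (input libraries carry the prefix Pre), and chance alone would give about 8. Library Pre_509 stood high in hTyr input for Cplx2 (9.93 log2 CPM, next 9.48) and Sv2b (6.82, next 6.38). In EYFP input, library Pre_505 stood low for Stx16 (6.70, next 6.86) and Unc13c (4.38, next 5.18), and library Pre_512 stood low for Syt9 (5.62, next 5.96) and high for Vamp5 (3.10, next 2.58). In EYFP IP, library IP_504 stood high for Syn2 (9.03, next 8.74) and low for Vamp8 (3.20, next 4.12, 151 reads).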

How the results depend on the processing

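The counts of called members and of passing paralog pairs stayed within 1.5 times their value under every alternative run. Leaving out single animals gave 37 to 42 called members in EYFP and 33 to 38 in hTyr animals. Of all 12596 genes, 6091 to 7331 and 5895 to 6428 were called in these fits. With the replicate block, 44 and 40 members were called, against 8133 and 7440 of all genes. These included all 41 and all 39 of the fit without the block, and the block changed no call among the named genes. The block together with length and GC trends removed gave 46 members in each, against 7812 and 7176 of 12381 genes. It shared 37 of 41 and 33 of 39 calls, Snap25 in hTyr animals among them with the opposite sign. That setting turned Snap25 to -0.274 in EYFP and -0.263 in hTyr animals and Syn1 to 0.0413 and 0.156; the cause was not tested. Across 12381 genes, the change between input and IP fell with GC content (Spearman's rho -0.34 in EYFP, -0.44 in hTyr animals, across genes). Among members only counted in their family, the calls of Syt3, Stx7 and Stx17 in EYFP and of Syt3, Syt6, Stx3 and Syn3 in hTyr animals were each lost under at least 1 setting. Vamp7 had no length and dropped out of that setting. A pseudocount of 5 CPM moved Syt10, Vamp5 and Stxbp2, all at low levels, by over 1.5 times.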
